A study of Mus musculus with 20 samples.

Results

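Genes for 7 lipid carriers and handlers were followed in 15 bulk RNA sequencing libraries of embryo-like structures that grow out of aggregated mouse stem cells. The genes were Cd36, Apod, Apoe, Fabp3, Fabp5, Fabp7 and Lpl, taken by name from the gene abundance tables, which list 54446 gene IDs. The set was selected on measured values as well as on function: the low Cd36 and the high Apod of structures grown with added CHIR99021 were known when it was drawn up, so the levels of these genes in that contrast are given as a description with no test. Levels are in TPM, an abundance corrected for gene length and scaled to the same total in every library. All 7 passed the filter applied to all genes, a mean of at least 1 TPM over the 15 libraries, which kept 14290 genes. Apod passed it through the structures with added CHIR99021, since its group mean elsewhere was at most 1.06 TPM.

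Every group came from 1 embryonic stem cell line, F1G4, carrying the reporters T::H2B-mCherry and Sox2::H2B-Venus, so all groups share 1 genetic background. All aggregates had a pulse of 3 µM CHIR99021, an inhibitor of the kinase GSK3 that activates WNT signalling, after 48 h of aggregation. The 96h group holds precursors at 96 h, 10 structures per library, and the other groups hold structures at 120 h, 6 per library. Gastruloid structures followed the Beccari protocol, TLSMG structures were in Matrigel (a basement membrane gel), TLSMGC structures were in Matrigel with CHIR added a further time, and TLSMGCL structures had Matrigel, CHIR and LDN, an inhibitor of BMP receptors. The doses of these later additions are not in the labels. Each group has 3 libraries, described as biological replicates, with no statement of separate culture days. Only structures with an asymmetric pole were picked, and the stem cells had been grown on feeder cells and then freed from them.

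Lipids do not dissolve in the water of blood or cytoplasm and move bound to proteins. Apolipoproteins carry them between cells, lipoprotein lipase frees fatty acids from circulating triglycerides, CD36 binds long-chain fatty acids and oxidised lipoproteins at the cell surface, and the small fatty acid binding proteins hold fatty acids and retinoids inside the cell. CD36 is best known from capillary endothelium, macrophages, muscle and fat, and FABP7 from neural progenitors and radial glia. FABP3 is best known from heart and skeletal muscle, and apolipoprotein D, a lipocalin that binds arachidonic acid and steroids, from glia and fibroblasts.

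Relative depth, as deposited coverage per unit of FPKM, ran from 3.12 to 6.84 over the libraries, and 13688 to 14494 genes reached 1 TPM. The summed level of 6 WNT feedback targets (Axin2, Sp5, Lef1, Notum, Nkd1 and Rnf43) was 91.7 to 139.5 TPM in Gastruloid and TLSMG libraries. With added CHIR it was 497.2 to 648 TPM. At 96 h it was 554 to 562 TPM, most of it from Lef1, with a mean of 329 TPM against 105 TPM in TLSMGC. The other targets had lower means at 96 h than in either CHIR group, such as Notum with 9.26 TPM against 67 TPM in TLSMGC. Summed BMP targets (Id1, Id2, Id3, Msx1, Msx2 and Smad6) were 144.5 to 188 TPM at 96 h, 225.8 to 247.2 TPM in Gastruloid and 419.9 to 485.7 TPM in TLSMG. They were 199.1 to 221.1 TPM in TLSMGC and 88.4 to 101 TPM in TLSMGCL. The sum was thus already lower in TLSMGC than in TLSMG, without LDN, although Msx1 and Msx2 were higher there. Somite markers summed to 520.2 TPM or more in every library and neural tube markers to 79.9 TPM or more, but fewer of them carried these sums with added CHIR: 4 of 7 somite and 6 of 9 neural tube markers reached a mean of 1 TPM in each CHIR group, against 7 of 7 and 8 of 9 in TLSMG. In TLSMGC against TLSMG, 4 somite and 6 neural tube markers were lower by at least 1 on the log2 scale without overlap, and 1 somite marker was higher. By the same rule 4.91% of all genes kept were lower and 1.30% were higher.

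Cd36 (gene ENSMUSG00000002944.15, chr5:17781690-17888801, minus strand) encodes the fatty acid and scavenger receptor. It read 6.27, 5.02 and 4.81 TPM in the 3 libraries at 96 h, 23.2, 29.2 and 31.0 TPM in Gastruloid, and 40.1, 34.9 and 44.0 TPM in TLSMG. In TLSMGC it read 1.37, 0.989 and 0.972 TPM, and in TLSMGCL 1.67, 0.934 and 1.27 TPM. The levels fell into 4 steps whose libraries did not overlap, TLSMG, Gastruloid, 96h and then both CHIR groups, which overlapped each other. From 96h to Gastruloid, groups on which the choice of Cd36 did not rest, its mean rose from 5.37 ± 0.787 to 27.8 ± 4.10 TPM (SD, n = 3), a ratio of 5.18. On the log2(TPM + 1) scale, which understates changes of low genes, the difference was 2.17 (SE 0.15; limma, Benjamini-Hochberg adjusted p = 8.28e-08). The other Cd36 differences are descriptions: 2.68 for TLSMG against 96h, 0.50 for TLSMG against Gastruloid, -4.27 for TLSMGC against TLSMG, -4.16 for TLSMGCL against TLSMG and -3.65 for TLSMGCL against Gastruloid. The mean in TLSMG, 39.7 ± 4.56 TPM, was 35.7 times that in TLSMGC, 1.11 ± 0.226 TPM. That ratio rests on values near 1 TPM in TLSMGC.

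Apod (ENSMUSG00000022548.14, chr16:31296192-31314808, minus strand) encodes the secreted lipocalin apolipoprotein D. It read 35.2, 22.8 and 21.4 TPM in TLSMGC and 33.5, 31.7 and 35.8 TPM in TLSMGCL. Without added CHIR every library was at 1.21 TPM or lower: 0.470, 0.524 and 0.637 TPM at 96 h, 0.992, 1.21 and 0.978 TPM in Gastruloid, and 0.442, 0.126 and 0.101 TPM in TLSMG. The CHIR groups overlapped because TLSMGC replicate 1 lay as high as TLSMGCL, and Gastruloid, 96h and TLSMG followed in that order without overlap. The mean in TLSMGC, 26.4 ± 7.60 TPM, was 119 times the 0.223 ± 0.190 TPM of TLSMG, a ratio that rests on values near 0 in TLSMG and became 234 without TLSMG replicate 1. The log2 difference was 4.47, and 4.25 without TLSMGC replicate 1. TLSMGCL differed by 4.84 from TLSMG and by 4.07 from Gastruloid. The single Apod difference tested, Gastruloid against 96h, was 0.42 (SE 0.16; limma, adjusted p = 0.054): the libraries did not overlap, and the change did not pass the threshold of 0.05. Both groups lay near the filter's minimum, and Apod entered the test only through its level in the CHIR groups. Its adjusted p was 0.0398 with a pseudocount of 0.1, 0.0382 with median-of-ratios scaling, 0.049 with no trend in the prior variance and 0.0259 when the fit held those groups alone, so that call depends on the setting.

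**Figure D1:**
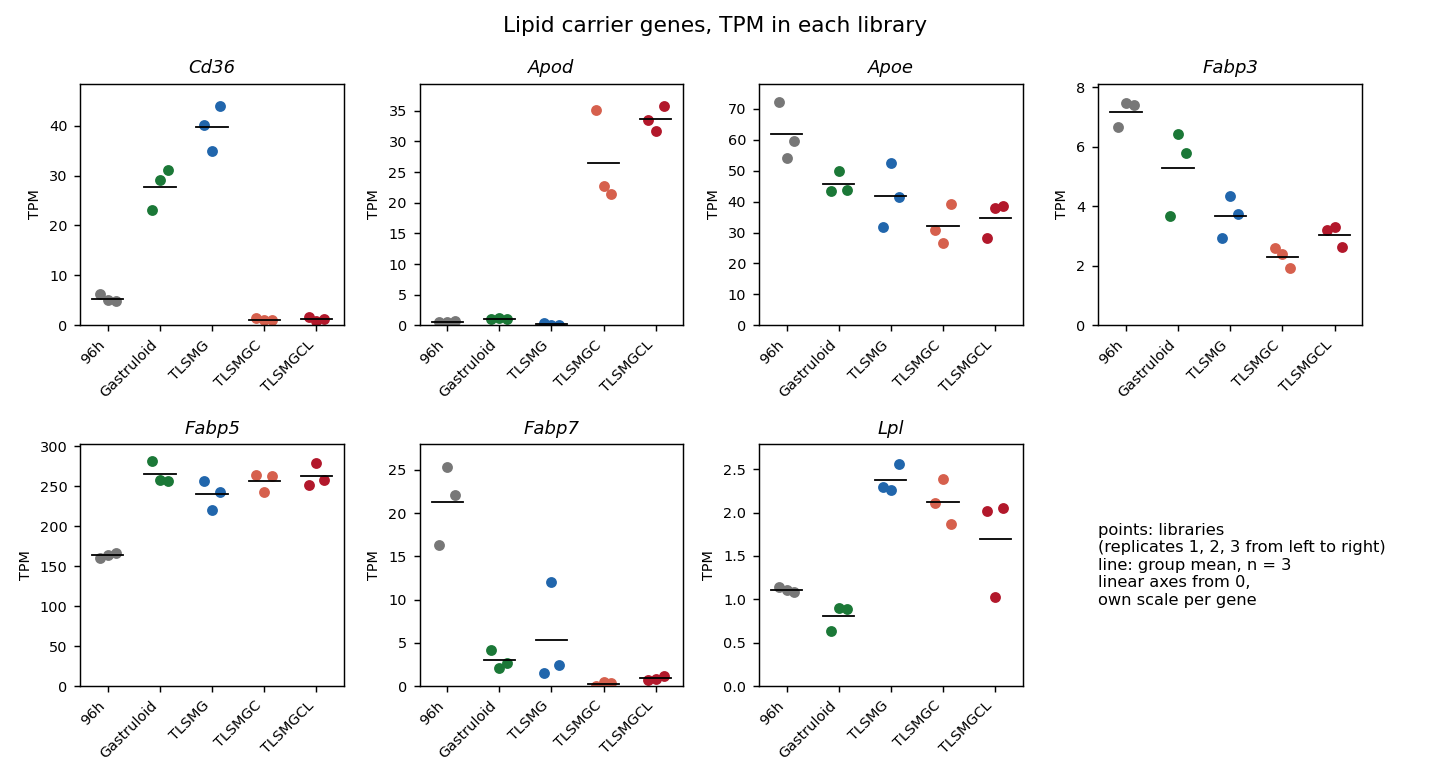
TPM (linear axes from 0, one scale per gene) of the 7 genes in each of 15 libraries, with lines at the group means (n = 3). Cd36 lies at 23.2 TPM or higher in Gastruloid and TLSMG and at 1.67 TPM or lower with added CHIR, where Apod lies at 21.4 TPM or higher.

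Promoter sequence shows what lies before 1 annotated start of each of these oppositely placed genes. The 250 bases before the start were read from RefSeq's table for GRCm38.p6, on each gene's own strand (Cd36, chr5:17835897-17836146; Apod, chr16:31314809-31315058; both minus), and overlap no GENCODE exon. Capitals mark matches to the TCF/LEF motif, the DNA word bound by the transcription factors of WNT signalling, searched as CTTTG followed by 2 bases that are each A or T, on both strands.
Cd36: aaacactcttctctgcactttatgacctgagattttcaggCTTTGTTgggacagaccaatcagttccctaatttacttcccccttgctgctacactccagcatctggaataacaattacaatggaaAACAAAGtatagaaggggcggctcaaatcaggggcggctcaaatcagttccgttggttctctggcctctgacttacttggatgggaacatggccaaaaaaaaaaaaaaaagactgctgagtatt
Apod: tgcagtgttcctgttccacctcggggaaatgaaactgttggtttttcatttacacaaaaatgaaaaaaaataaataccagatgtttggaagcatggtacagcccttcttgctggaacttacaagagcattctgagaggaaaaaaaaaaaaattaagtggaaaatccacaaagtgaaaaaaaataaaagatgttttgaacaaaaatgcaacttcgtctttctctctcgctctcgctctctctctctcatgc
The Cd36 window holds 2 matches, from 210 to 204 bases before the start and, on the other strand, from 124 to 118 bases before it, and the Apod window holds none. Among the other members, 1 of 3 Apoe windows holds a match, from 54 to 48 bases before the start, and the windows of Fabp3 and Fabp7 hold none. Of all 32851 windows of this length in the table, 14.8% hold at least 1 match. Cd36 has several annotated starts, and the tables give 1 value per gene, so which start was used in these structures was not measured. The matches are a description of these letters and show no binding.

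Markers of cell types that can carry Cd36 or Apod moved with some of these differences. The summed TPM of 10 endothelial markers (Kdr, Cdh5, Pecam1, Tie1, Tek, Cldn5, Etv2, Sox18, Flt1 and Emcn) reached 284 to 350.3 in the TLSMG libraries. It lay between 36.9 and 48.4 for Gastruloid, between 25.2 and 86.5 for TLSMGC and between 12.8 and 21.3 for TLSMGCL, and at 96 h between 10.1 and 14.9, with Emcn listed at 0. Cd36 and these markers were both highest in TLSMG. They were out of step elsewhere: TLSMGC replicate 2 had a marker sum of 86.5 TPM with Cd36 at 0.989 TPM, whereas Gastruloid replicate 1 had 36.9 TPM with Cd36 at 23.2 TPM. The macrophage markers Adgre1 and Ptprc were listed at 0 in all 5 groups, and the 7 macrophage markers summed to at most 5.73 TPM. Of 7 cardiac markers, 1 reached a mean of 1 TPM in each group, and their sum was 1.15 to 17.6 TPM, highest in TLSMGCL (13.3 to 17.6 TPM). Surface ectoderm markers (Krt5, Krt14, Krt15, Trp63, Grhl3 and Wnt6) summed to 46.1 to 82.9 TPM in the CHIR groups, where Apod was high, and to 8.69 to 21.5 TPM in the others, with Krt14 listed at 0 throughout and 2 of 6 markers at a mean of 1 TPM or more in each group. Of the 2 that passed the filter, 1 was higher by at least 1 on the log2 scale without overlap in TLSMGC against TLSMG. The same count held in TLSMGCL against TLSMG (1.30% and 1.33% of all genes), so the summed rise rests on few markers. The 8 fibroblast markers, a check for feeder cells, gave 16.7 to 82.1 TPM and were lower in the CHIR groups (29.4 to 43.0 TPM) than in Gastruloid and TLSMG (63.6 to 82.1 TPM). The part of these cell types in the levels of Cd36 and Apod was not tested. In bulk libraries, fewer cells of a type and less RNA per cell cannot be told apart.

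**Figure D2:**
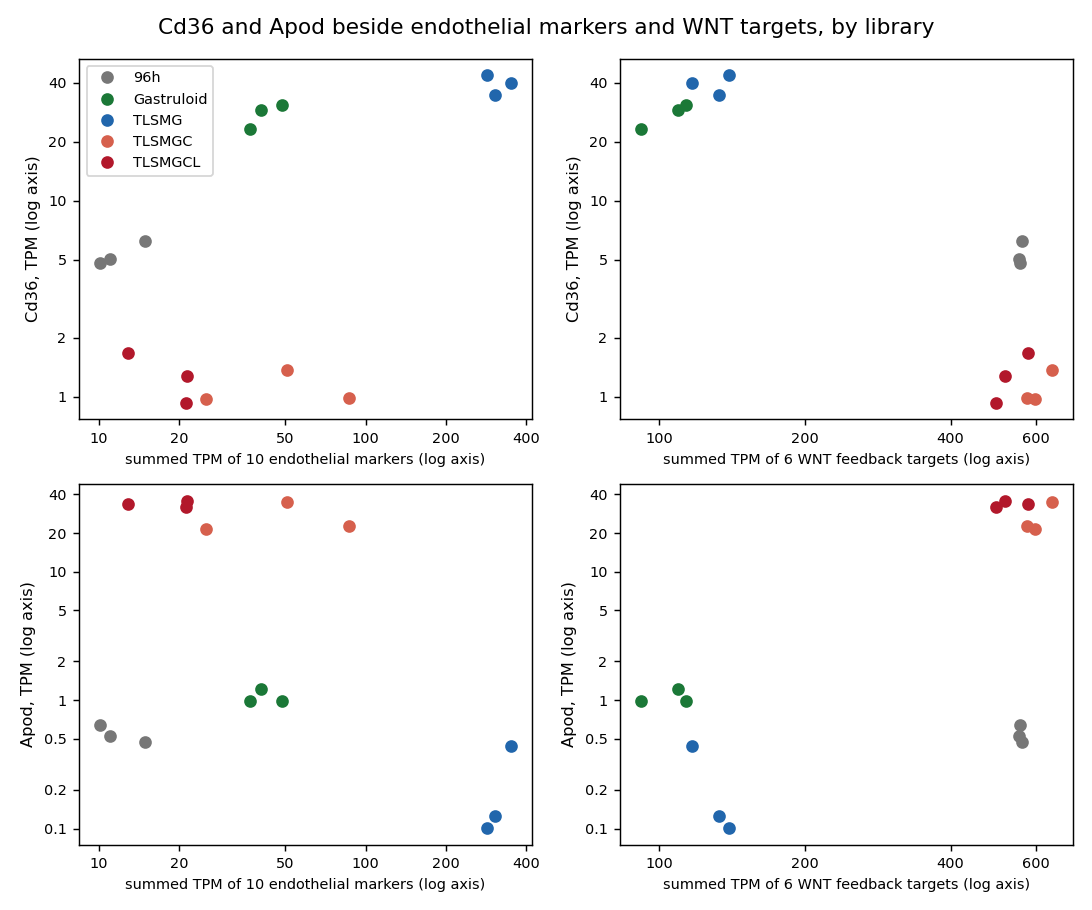
TPM of Cd36 (top) and Apod (bottom) in each of 15 libraries against the summed TPM of 10 endothelial markers (left) and 6 WNT feedback targets (right), all on log axes. The 96h libraries had summed WNT targets of 554 to 562 TPM, Apod at no more than 0.637 TPM and Cd36 at 4.81 TPM or higher. Lef1 gave most of that sum (mean 329 TPM, against 105 TPM in TLSMGC), and the other targets had lower means than in either CHIR group. The 96h libraries also differ from the CHIR groups in time and Matrigel, and the part of WNT signalling was not tested.

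Apoe (ENSMUSG00000002985.16, chr7:19696109-19699188, minus strand) encodes apolipoprotein E, the ligand through which lipoproteins bind receptors of the LDL receptor family. It read 72.2, 54.0 and 59.6 TPM at 96 h, 43.3, 49.9 and 43.7 TPM in Gastruloid, and 31.7, 52.4 and 41.5 TPM in TLSMG. In TLSMGC it read 30.8, 26.5 and 39.4 TPM, and in TLSMGCL 28.2, 37.8 and 38.5 TPM. The 96h libraries stood above every other library, and the 120 h groups overlapped each of their neighbours in the order of means. Apoe fell in TLSMG against 96h by 0.57 on the log2 scale (SE 0.18; limma, adjusted p = 0.0206), from 61.9 ± 9.30 to 41.9 ± 10.3 TPM (SD, n = 3). That call was lost without TLSMG replicate 1 (adjusted p = 0.0991) or 96h replicate 1 (adjusted p = 0.0867). In Gastruloid against 96h the difference was -0.43 (SE 0.18; limma, adjusted p = 0.0795; 0.0232 when the fit held those groups alone), and in TLSMG against Gastruloid it was -0.15 (adjusted p = 0.556).

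Lpl (ENSMUSG00000015568.16, chr8:68880491-68907448, plus strand), the gene of lipoprotein lipase, was low everywhere. It read 1.14, 1.10 and 1.08 TPM at 96 h, 0.636, 0.905 and 0.887 TPM in Gastruloid, and 2.29, 2.26 and 2.56 TPM in TLSMG. With added CHIR it read 2.11, 2.39 and 1.86 TPM in TLSMGC and 2.02, 1.02 and 2.05 TPM in TLSMGCL. Every TLSMG and TLSMGC library lay above every 96h and Gastruloid library, and TLSMGCL overlapped 96h through its replicate 2. Lpl rose by 0.68 in TLSMG against 96h (SE 0.15; limma, adjusted p = 0.00202), by 0.90 in TLSMG against Gastruloid (adjusted p = 0.000626) and by 0.56 in TLSMGCL against Gastruloid (adjusted p = 0.00963). The call of TLSMGCL against Gastruloid was lost when the fit held those groups alone (adjusted p = 0.0623). Gastruloid against 96h gave -0.22 (SE 0.15; adjusted p = 0.247).

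The fatty acid binding proteins differed in level and direction. Fabp5 (ENSMUSG00000027533.10, chr3:10012548-10016607, plus strand), the epidermal type, was the most abundant of the 7 genes per length. It read 160, 164 and 166 TPM at 96 h, 282, 258 and 257 TPM in Gastruloid, 257, 221 and 242 TPM in TLSMG, 264, 242 and 262 TPM in TLSMGC, and 252, 279 and 258 TPM in TLSMGCL. All 12 libraries at 120 h lay above those at 96 h, and each 120 h group overlapped its neighbour in the order of means, Gastruloid, TLSMGCL, TLSMGC and TLSMG. Fabp5 rose by 0.70 in Gastruloid against 96h (SE 0.06; limma, adjusted p = 1.65e-06) and by 0.55 in TLSMG against 96h (adjusted p = 1.36e-05). TLSMG against Gastruloid gave -0.15 (adjusted p = 0.0849), which became -0.32 with FPKM (adjusted p = 0.00742) and -0.32 with median-of-ratios scaling (adjusted p = 0.0102). TLSMGCL against Gastruloid gave -0.01 (SE 0.06; adjusted p = 0.882), and 0.02 with that scaling.

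Near-identical annotated copies share sequence with Fabp5, and abundance estimates can divide reads among them. Transcripts of 3 other genes, Gm6166, Gm13998 and Gm14328, matched Fabp5 at 95% identity or more over at least 150 bases. Gm6166, with 98.3% identity over 409 bases, was listed at up to 169 TPM, against up to 3.19 TPM for Gm14328 and 0.293 TPM for Gm13998. The copies together gave 104 to 171.5 TPM, so the level of Fabp5 itself is uncertain by that amount. Adding them to Fabp5 left the rise from 96h at 0.66 in Gastruloid (SE 0.06; limma, adjusted p = 8.41e-07) and 0.55 in TLSMG (adjusted p = 4.21e-06), an alternative chosen after seeing the data.

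**Figure D3:**
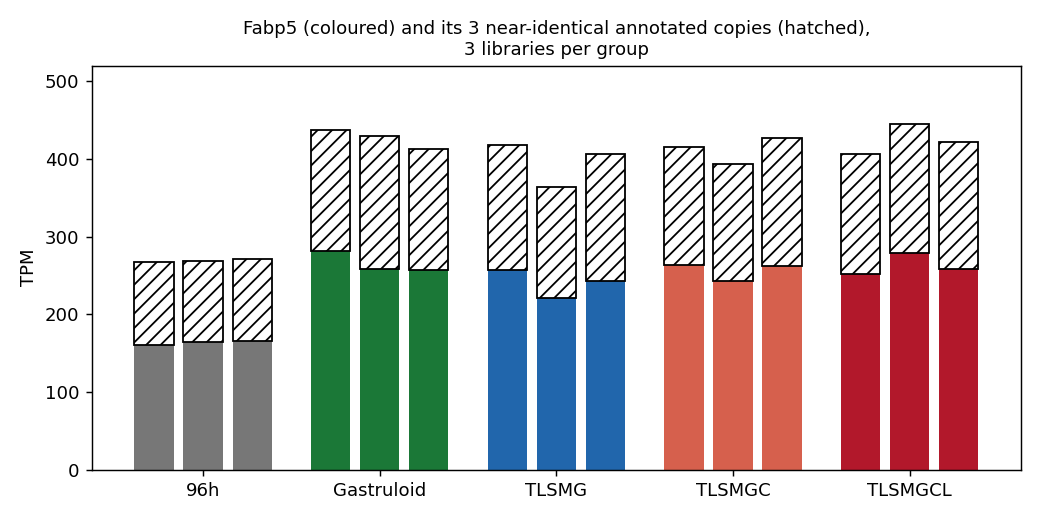
TPM of Fabp5 (coloured bars) and of its 3 near-identical annotated copies (hatched, stacked on top) in each library, on a linear axis from 0. The stacked bars reach 268 to 272 TPM at 96 h and 364 to 445 TPM at 120 h.

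Fabp7 (ENSMUSG00000019874.11, chr10:57784881-57788450, plus strand), the brain type, was highest at 96 h, with 16.3, 25.4 and 22.1 TPM. It read 4.19, 2.10 and 2.61 TPM in Gastruloid, 1.56, 12.0 and 2.41 TPM in TLSMG, 0.707, 0.850 and 1.19 TPM in TLSMGCL, and 0.441 and 0.349 TPM in TLSMGC replicates 2 and 3, with replicate 1 listed at 0. No 120 h library reached the 96h range, and TLSMG replicate 2 stood apart from its group. Fabp7 fell by 2.50 in Gastruloid against 96h (SE 0.44; limma, adjusted p = 0.000531) and by 2.18 in TLSMG against 96h (adjusted p = 0.00129), which became -2.89 without TLSMG replicate 2 (adjusted p = 2.12e-06). Its TLSMG difference from Gastruloid was 0.32 (adjusted p = 0.597) and -0.39 without TLSMG replicate 2 (adjusted p = 0.252). Its TLSMGC difference from TLSMG was -1.96, and -1.24 without that library. In TLSMGCL against Gastruloid the difference was -1.02 (SE 0.44; adjusted p = 0.0888), with an adjusted p of 0.0103 when the fit held those groups alone. The 9 neural tube markers (Sox1, Sox2, Sox3, Pax6, Hes5, Irx3, Olig2, Neurog2 and Nes) summed to 84.9 to 119 TPM at 96 h, where Fabp7 was highest, and to 428 to 567 TPM in Gastruloid. Among the 120 h groups they were lowest where Fabp7 was, with 79.9 to 92.4 TPM in TLSMGC and 98.7 to 109.5 TPM in TLSMGCL, and their part in the level of Fabp7 was not tested. Within TLSMG they gave 240.5, 352 and 308 TPM, highest in replicate 2.

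Fabp3 (ENSMUSG00000028773.8, chr4:130308595-130315463, plus strand), the heart type, read 6.65, 7.45 and 7.41 TPM at 96 h, 3.66, 6.43 and 5.80 TPM in Gastruloid, and 2.93, 4.34 and 3.75 TPM in TLSMG. In TLSMGC it read 2.59, 2.39 and 1.92 TPM, and in TLSMGCL 3.19, 3.29 and 2.62 TPM. Every 120 h library lay below 96h, and TLSMGC lay lowest, without overlap with TLSMGCL above it. Fabp3 fell by 0.82 in TLSMG against 96h (SE 0.17; limma, adjusted p = 0.00129) and by 0.62 in TLSMGCL against Gastruloid (adjusted p = 0.0104), which became -0.49 without Gastruloid replicate 2 (adjusted p = 0.0521). Gastruloid against 96h gave -0.40 (adjusted p = 0.0686), past the threshold without Gastruloid replicate 2 (adjusted p = 0.0312). TLSMG against Gastruloid gave -0.41 (adjusted p = 0.0639), with an adjusted p of 0.0158 for FPKM and 0.0184 for median-of-ratios scaling. The copy Fabp3-ps1, 99.3% identical over 402 bases, was listed at 0.432 to 3.28 TPM. Zcchc17, which overlaps Fabp3 on the opposite strand, was at 23.1 to 35.4 TPM; the libraries were stranded, and whether strand was used in the abundance estimates is not given in the sources used here, so reads of the overlap may be shared.

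Among these 3 proteins of one fold, Fabp5 made up 83.4% to 87.5% of their summed TPM at 96 h and 93.1% to 99.1% at 120 h. Fabp7 gave 8.91% to 12.9% at 96 h, and at 120 h at most 1.45% in every library but TLSMG replicate 2, where it gave 5.08%.

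**Figure D4:**
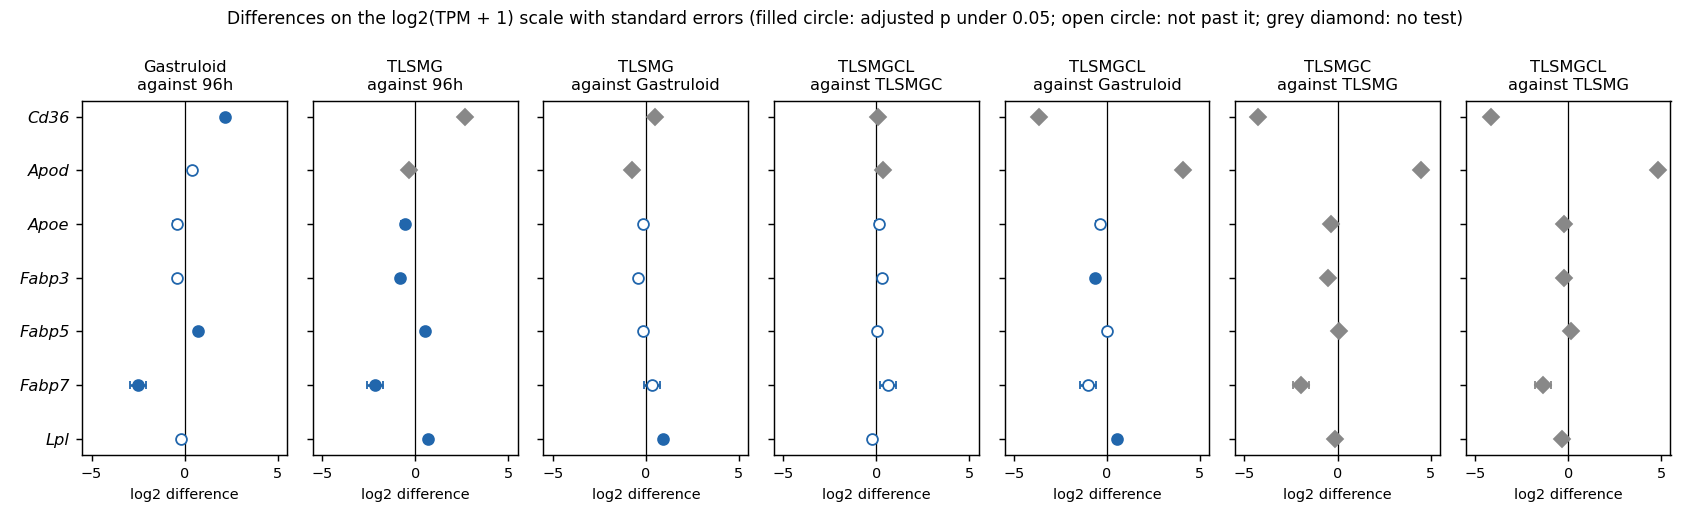
Log2 differences on the log2(TPM + 1) scale (horizontal axis) with standard errors for the 7 genes in 7 comparisons, with filled circles for an adjusted p under 0.05, open circles for tests that did not pass and grey diamonds where no test was made. In TLSMGC against TLSMG, Cd36 lies at -4.27 and Apod at 4.47, and the other 5 genes between -1.96 and 0.10.

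The comparisons share libraries, and each is read against the share of all 14290 genes that moved in it. In Gastruloid against 96h, 20.8% of genes rose and 20.5% fell; of the 7 genes, 2 rose (Cd36 and Fabp5) and 1 fell (Fabp7), with a median difference of -0.22 beside 0.00 over all genes. The all-gene counts were 2969 and 2925 in TPM and 3597 and 2158 in FPKM. In TLSMG against 96h, 33.5% rose and 12.5% fell; of the 5 genes tested, 2 rose (Fabp5 and Lpl) and 3 fell (Apoe, Fabp3 and Fabp7), with a median of -0.57 beside 0.14. Median-of-ratios scaling moved that all-gene median to -0.01 and the counts from 4792 and 1785 to 3183 and 3299; FPKM gave 3590 and 2232. In TLSMG against Gastruloid, 31.5% rose and 7.87% fell, and 1 of the 5 rose (Lpl), with a median of -0.15 beside 0.13. Here the scaling moved the median to -0.02 and the counts from 4497 and 1125 to 2755 and 2594, with 2576 and 2602 in FPKM, and it brought the members called to 3.

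In TLSMGCL against Gastruloid, 15.0% of genes rose and 21.1% fell; of the 5 genes tested, Lpl rose and Fabp3 fell, with a median of -0.39 beside -0.02. In TLSMGCL against TLSMGC, the comparison for added LDN, 0.406% of genes rose and 0.777% fell, 58 and 111 genes, against 104 and 101 with median-of-ratios scaling and 90 and 112 in FPKM. None of the 5 passed limma's test there, with 0 at an unadjusted p under 0.05 and differences from -0.23 (Lpl) to 0.61 (Fabp7), a median of 0.11 beside -0.04. Cd36 differed by 0.11 and Apod by 0.37 in that comparison, as descriptions. For TLSMGC against TLSMG the count is of genes with an absolute log2 difference of at least 1 and no overlap of libraries, 1.30% of genes higher and 4.91% lower; of the 7 genes, Apod was higher and Cd36 and Fabp7 were lower. The same count in TLSMGCL against TLSMG gave 1.33% and 5.51%, with the same 3 genes. These choices rested on that contrast, so nothing is read from the shares. Apoe differed by -0.36, Fabp3 by -0.50, Fabp5 by 0.10 and Lpl by -0.11 in TLSMGC against TLSMG.

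Other genes of lipid and retinoid handling were taken from 9 lists of 99 genes, of which 60 passed the filter. In Gastruloid against 96h, where 20.8% of all genes rose and 20.5% fell, 16 of the 60 rose and 24 fell, with a median difference of -0.05 beside 0.00 over all genes. In TLSMG against 96h 20 rose and 20 fell, where 33.5% and 12.5% of all genes did, with a median of -0.01 beside 0.14. In TLSMG against Gastruloid 12 rose and 5 fell, beside 31.5% and 7.87%, with a median of 0.04 beside 0.13. In TLSMGCL against Gastruloid 9 rose and 23 fell, beside 15.0% and 21.1%, with a median of -0.18 beside -0.02. In TLSMGCL against TLSMGC, 2 rose (Abca1 and Crabp1) and none fell, beside 0.406% and 0.777%. Of 12 fatty acid and retinoid binding proteins of the same fold as FABPs, 3 passed the filter, and all 3 were called in Gastruloid and in TLSMG against 96h.

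Crabp1 and Crabp2 bind retinoic acid in the cell. Crabp1 read 551, 458 and 467 TPM at 96 h, 139, 86.5 and 104 TPM in Gastruloid, 68.8, 103 and 69.4 TPM in TLSMG, 363, 326 and 383 TPM in TLSMGC, and 554, 683 and 603 TPM in TLSMGCL. The CHIR groups and 96h stood above Gastruloid and TLSMG in every library. Crabp1 fell by 2.17 in Gastruloid against 96h (SE 0.17; limma, adjusted p = 3.3e-07) and rose by 0.78 in TLSMGCL against TLSMGC (adjusted p = 0.0475). The latter call was lost with the replicate block (adjusted p = 0.086), with no trend in the prior variance (adjusted p = 0.0618), with no filter (adjusted p = 0.114) and without any 1 of the 6 libraries (adjusted p = 0.0689 to 0.169). Relative to Gastruloid, Crabp2 was placed the other way at 96 h and in TLSMGCL. Its mean was 169 ± 50.6 TPM at 96 h and 692 ± 173 TPM in Gastruloid, a rise of 2.04 (SE 0.22; adjusted p = 5.56e-06). In TLSMGCL it was 222 ± 10.4 TPM, a fall of 1.61 from Gastruloid (adjusted p = 6.58e-05). TLSMG and TLSMGC overlapped, at 335, 535 and 439 TPM and at 342, 340 and 359 TPM. Both genes had a lower mean in TLSMG than in Gastruloid. For Crabp2 that fall was 0.66 (limma, adjusted p = 0.0266). It was lost in some alternatives, such as no filter (adjusted p = 0.0687) and leaving out TLSMG replicate 1 (adjusted p = 0.111).

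Among apolipoproteins and lipocalins, 5 of 16 passed the filter. Ptgds, a lipocalin that makes prostaglandin D, read 52.8, 47.7 and 42.4 TPM at 96 h and at most 1.64 TPM in any 120 h library, with TLSMGC replicate 1 listed at 0. It fell by 4.35 in Gastruloid against 96h (SE 0.17; limma, adjusted p = 4.54e-10) and by 5.09 in TLSMG against 96h (adjusted p = 1.19e-10). Ptgds passed the filter mostly through 96h, the high side of both tests, with means of 1.395 TPM in Gastruloid and 0.424 TPM in TLSMG. Clu, the gene of clusterin (apolipoprotein J), was at 18.0, 20.8 and 18.1 TPM in Gastruloid, 18.0, 15.1 and 15.5 TPM in TLSMG, 1.44, 1.48 and 1.17 TPM in TLSMGC, and 1.76, 2.49 and 2.44 TPM in TLSMGCL. It differed by -2.86 in TLSMGC against TLSMG, as a description, and fell by 2.63 in TLSMGCL against Gastruloid (SE 0.29; adjusted p = 1.18e-05). At 96 h its libraries read 29.8, 13.1 and 8.75 TPM, with replicate 1 apart. Apoc1 fell by 1.44 in TLSMGCL against Gastruloid (adjusted p = 0.00484; 0.0595 with a pseudocount of 0.1).

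Of 11 lipoprotein receptor genes 9 passed. Lrp2, the large endocytic receptor megalin, rose from 0.420 ± 0.168 TPM at 96 h to 2.27 ± 0.309 TPM in Gastruloid, by 1.21 (SE 0.15; limma, adjusted p = 2.01e-05), and lay at 2.91 ± 0.702 TPM in TLSMG. With added CHIR it was at 0.167 ± 0.0797 TPM in TLSMGC and 0.151 ± 0.0573 TPM in TLSMGCL, a fall of 1.50 from Gastruloid in the latter (adjusted p = 3.86e-06). Lrp2 passed the filter through Gastruloid and TLSMG, as every other group mean was under 1 TPM. Gastruloid was the high side of both tests. Lrp1 fell by 0.89 in TLSMGCL against Gastruloid (adjusted p = 1.67e-05). The cholesterol exporters Abca1 and Abcg1 were low with CHIR: Abca1 read 4.35, 4.55 and 3.70 TPM in TLSMG, 0.761, 0.660 and 0.874 TPM in TLSMGC and 2.75, 1.86 and 2.29 TPM in TLSMGCL. Its libraries did not overlap between any of these groups, and it rose by 0.90 in TLSMGCL against TLSMGC (SE 0.12; adjusted p = 0.00315; 0.0753 when the fit held those groups alone). Abcg1 fell by 1.03 in TLSMGCL against Gastruloid (adjusted p = 2.21e-05).

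Of 13 genes for fatty acid uptake and activation, 11 passed. Acsl3, an acyl-CoA synthetase that activates fatty acids, read 54.8, 54.1 and 47.8 TPM at 96 h, 53.0, 60.6 and 60.8 TPM in Gastruloid, 83.9, 88.7 and 90.9 TPM in TLSMG, 163, 147 and 158 TPM in TLSMGC, and 154, 138 and 182 TPM in TLSMGCL. The steps from Gastruloid to TLSMG and from TLSMG to the CHIR groups showed no overlap. Acsl3 rose by 0.59 in TLSMG against Gastruloid (SE 0.09; limma, adjusted p = 0.000536) and by 1.42 in TLSMGCL against Gastruloid (adjusted p = 1.18e-07). Slc27a6, a fatty acid transporter, fell from 3.10 ± 0.332 TPM at 96 h to 0.741 ± 0.522 TPM in Gastruloid (adjusted p = 0.000122). Of 12 fatty acid oxidation genes 11 passed, and 2 rose and 7 fell in Gastruloid against 96h, beside 20.8% and 20.5% of all genes. In TLSMG against 96h 3 rose and 6 fell, beside 33.5% and 12.5% of all genes. In TLSMG against Gastruloid 1 rose and 0 fell, beside 31.5% and 7.87%. In TLSMGCL against Gastruloid 1 rose and 3 fell, beside 15.0% and 21.1%. In TLSMGCL against TLSMGC 0 passed the threshold, beside 0.406% and 0.777%. Those that fell from 96h to Gastruloid included Cpt1b, which carries fatty acids into mitochondria, from 4.10 ± 0.529 to 1.42 ± 0.464 TPM (limma, adjusted p = 0.000334). Cpt1b passed the filter mostly through 96h, the high side of that test, with means of 1.353 TPM in TLSMG and 0.529 TPM in TLSMGCL. Of 5 lipid droplet coat genes 2 passed the filter, and of 12 genes for lipases and their cofactors 6 did.

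**Figure D5:**
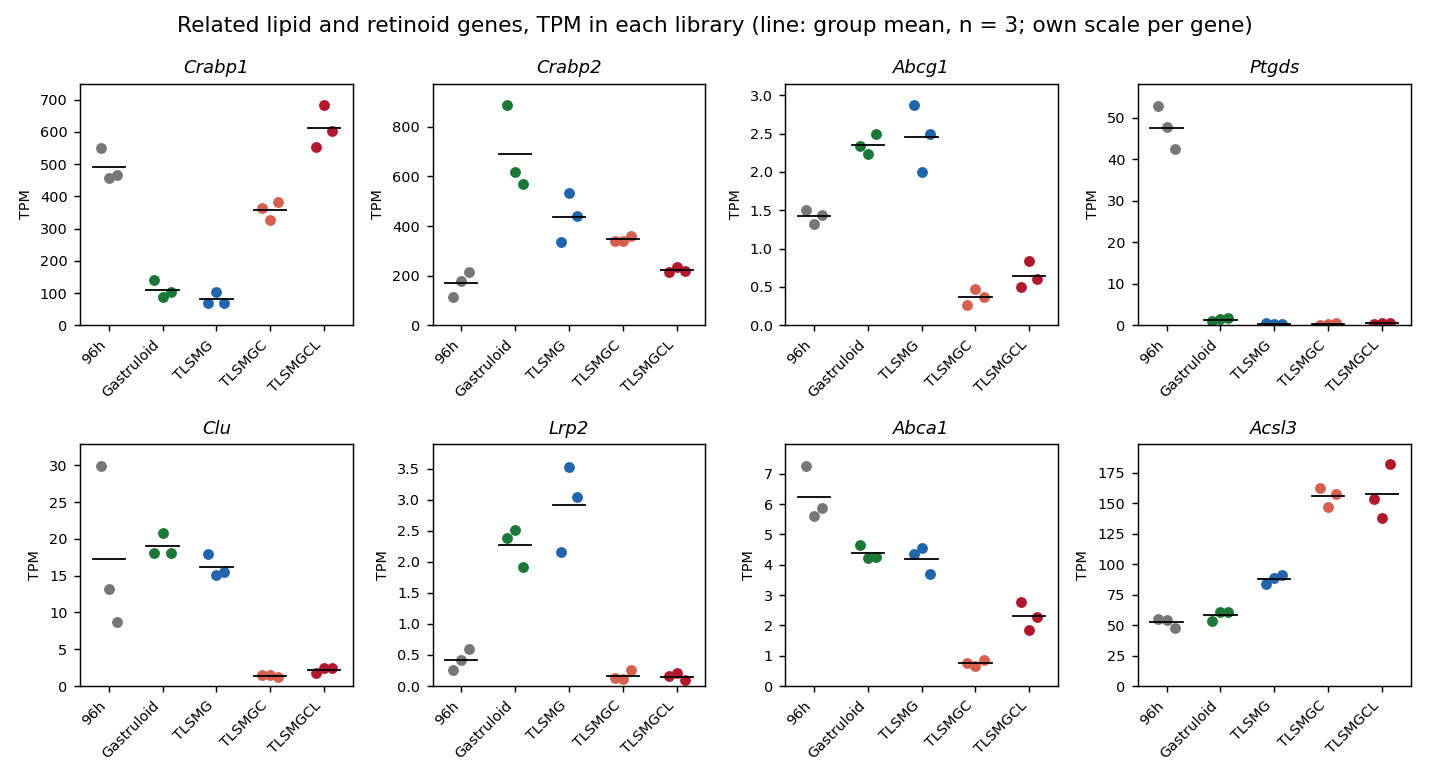
TPM (linear axes from 0, one scale per gene) of 8 related genes in each library, with lines at the group means (n = 3). Clu and Lrp2 lie near 0 in both CHIR groups, Crabp1 and Acsl3 are high there, and Ptgds is above 1.64 TPM at 96 h alone.

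Genes whose log2(TPM + 1) followed a member most closely over the 15 libraries were searched among those with a mean of at least 5 TPM in their highest group. The libraries fall into the 5 groups, so these correlations describe the group pattern and carry no p. For Cd36, close matches over 11753 genes were Atp9a, with a Pearson's r of 0.99, and Sncaip, Nrg1 and Plcd1, each with 0.98. Atp9a had means of 6.30 TPM at 96 h, 13.5 TPM in Gastruloid, 14.6 TPM in TLSMG, 4.00 TPM in TLSMGC and 4.43 TPM in TLSMGCL. For Apod, r was 0.99 for Slc25a48 and Gbp10 and 0.98 for Camkv, Wnt11 and Car11. Wnt11, a secreted WNT ligand, had means of 0.485, 0.561 and 0.472 TPM at 96 h, in Gastruloid and in TLSMG, and of 12.9 and 21.3 TPM in TLSMGC and TLSMGCL.

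For Fabp5 the closest were Sdf2l1 (r = 0.98) and Thtpa (r = 0.96), for Lpl Naa15 (r = 0.99) and Ints8 (r = 0.98), and for Fabp3 Arid3b and Ldhb (both r = 0.94). Tmem115 followed Apoe with an r of 0.90, and the closest for Fabp7 were Trappc12 and Stmn2 (both r = 0.94). Stmn2, a gene of growing neurons, had means of 16.4 TPM at 96 h, 4.62 TPM in Gastruloid and 3.49 TPM in TLSMG.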

How the data were processed

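The deposited TPM, FPKM (also length-corrected, scaled to library depth) and coverage values stood in 1 gene abundance table per library, per the file headers, with replicates kept apart. The submitters' processing notes name cutadapt 2.4, STAR 2.7.3a, StringTie 2.0 and build mm10, with no settings. Lines repeated for a gene ID were summed. Of the 54446 gene IDs, 54409 matched GENCODE M21 without version.

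Genes whose mean over the 15 libraries was 1 TPM or higher were tested on log2(TPM + 1), with limma (version 3.58.1, run under R 4.3.3). A gene high in few groups could pass this filter through the same groups that its tests compare. All 5 groups entered 1 fit with a trend in the prior variance, and two-sided p-values were adjusted by Benjamini-Hochberg over 14290 genes, with a threshold of 0.05. The procedure was tested on simulated data. Coverage served only for relative depth. The files used hold no counts, so no counting intervals or floors were computed, and a listed 0 can be a failed estimate.

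The members, lists and rules were chosen with earlier results of these data known. Cd36 and Apod were tested only in Gastruloid against 96h. A test planned for TLSMGCL against Gastruloid was not read for them, because TLSMGCL also had added CHIR. All 7 members are named; from each related list the naming rule took the 2 largest rises and falls past the threshold without overlap, in untested comparisons the 2 largest differences per direction, and for likeness the 5 (Cd36, Apod) or 2 closest genes, of which a selection is given and some are not reported here. Near copies were found with blastn 2.17.0 against GENCODE M21 transcripts. The 5 single-cell samples were not analysed here. Alternatives were other pseudocounts, filters, scalings, fits, a replicate block and leaving out each library.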

Additional observations from a re-analysis of the deposited data

Results flagged for a closer look

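The difference of Lpl from 96h was not the same in Gastruloid and TLSMG: its log2(TPM + 1) difference from 96h was -0.22 in Gastruloid and 0.68 in TLSMG, and the direct comparison of TLSMG with Gastruloid gave 0.90 (SE 0.15; limma, Benjamini-Hochberg adjusted p = 0.000626). All 3 TLSMG libraries, at 2.26 to 2.56 TPM, lay above all 3 Gastruloid libraries, at 0.636 to 0.905 TPM. Groups of 3 libraries were not tested for outlying libraries.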

How the results depend on the processing

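Precision is limited by 3 libraries per group and by the absence of counts from the files used. Levels near 1 TPM limit it further for Lpl, for Fabp7, for Apod without CHIR and for Cd36 with CHIR. Among 27 tested member differences, alternatives brought 14 values past the threshold, took 4 below it and changed the sign of 8, none of them called. Members called were 3 in Gastruloid against 96h, and 5 when the fit held those groups alone; 5 in TLSMG against 96h, and 3 with a minimum mean of 5 TPM; 1 in TLSMG against Gastruloid, with 0 at that minimum, 2 in FPKM, 3 with median-of-ratios scaling and 1 to 2 leaving out a library; and 2 in TLSMGCL against Gastruloid, with 0 at that minimum, 1 in FPKM and 1 to 2 leaving out a library. Genes under a filter are not tested, which lowers these counts. Related genes called in TLSMG against Gastruloid were 17, and 11 with those groups alone and 8 to 15 leaving out a library; in TLSMGCL against TLSMGC they were 2, and 1 with the replicate block, 1 with no trend in the prior variance and 1 to 2 leaving out a library. All genes called in TLSMGCL against TLSMGC numbered 12 higher and 30 lower with those groups alone. Leaving out a library, the difference of TLSMG from Gastruloid ran from -0.3203 to 0.0332 for Apoe and from -0.3907 to 0.7839 for Fabp7; that of TLSMGCL from TLSMGC ran from -0.0138 to 0.2631 for Apoe and from -0.0056 to 0.0661 for Fabp5; and that of TLSMGCL from Gastruloid ran from -0.0572 to 0.0284 for Fabp5, which was 0.0157 with median-of-ratios scaling. The cause of these shifts was not tested. Same-numbered libraries showed little shared deviation (mean correlation of deviations -0.072 to 0.035), which cannot tell whether they shared a culture day or batch. With the replicate block the members called stayed at 3, 5, 1, 0 and 2. Summing near copies, chosen after seeing the data, changed no call of Fabp3 or Fabp5.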

Other observations

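Fabp7 was not the only gene that stood apart in TLSMG replicate 2, a comparison chosen after its values were seen. Genes at 5 TPM or more in 1 TLSMG library and at least 4 times both others numbered 8 in replicate 1, 11 in replicate 2 and 8 in replicate 3. Beside Fabp7, the 11 included the protocadherins Pcdhgb5 and Pcdhgc4 and the zinc finger gene Zfp422.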
